A study of Mus musculus with 20 samples.

Results

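Interferon response and antigen presentation genes were followed in cultured neural stem cells from spinal cord of adult mice, with and without YAP1, a transcriptional co-activator of the Hippo pathway. They were chosen by symbol from a list of 45 genes, of which 43 had counts in these libraries, among 16927 genes in all. Mx1 and Mx2 were not analysed here. The counts of 34 of the 43 were high enough to test, and the other 9 are given as counts.

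There were 4 groups of 2 libraries each, from polyA-selected RNA: KO differentiation, WT differentiation, KO proliferation and WT proliferation. In KO cells, exon 3 of Yap1, flanked for removal by Cre recombinase, was deleted with an adenovirus that drives Cre from the CMV promoter, which is active in most cell types. Cells of both genotypes were collected as neurospheres after 7 days in medium with heparin, FGF2 and EGF (proliferation), or 5 days into differentiation. The labels do not say whether the WT cells were given a virus or carried the modified allele, so that an effect of either cannot be told apart from that of YAP1 loss. Libraries carry the replicate numbers 7 and 8, without a statement of what a number stands for, and nothing says whether they came from separate animals or cultures. P-values therefore measure the spread between these libraries, which may be technical.

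Type I and type II interferons bind receptors at the cell surface and activate Janus kinases, which phosphorylate STAT proteins. STAT2 joins another STAT protein and IRF9 to form a complex that binds interferon-stimulated response elements, and the genes so induced sense viral RNA, block viral entry or translation and break up infected cells' RNA. Interferons also raise the antigen presentation machinery, in which the immunoproteasome cuts proteins into peptides, the TAP transporter and tapasin load them, and MHC class I molecules with B2m carry them to the surface. Neural stem cells are known to keep some of these genes active without infection.

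Total counts were 18075595 to 18940983 per library. Yap1 stood at 22.6 and 27.8 CPM (read counts scaled to the TMM-adjusted library size) in KO differentiation, against 107 and 93.7 CPM in WT differentiation. It stood at 27.0 and 32.7 CPM in KO proliferation, against 171 and 150 CPM in WT proliferation. Yap1 was thus lower in the KO libraries of both conditions (log2 fold changes -1.99 and -2.42, edgeR quasi-likelihood test with Benjamini-Hochberg adjustment, adjusted p = 0.106 and 0.0322). Of the marker lists, astrocyte markers (5 of 5 genes with counts) summed to 3397 to 4074 CPM in KO differentiation, 5803 to 6146 in WT differentiation, 647 to 963 in KO proliferation and 803 to 871 in WT proliferation. Neural stem cell markers (5 of 5) summed to at least 3129 CPM in every library. Markers of microglia and macrophages, of which 4 of 10 were analysed, reached at most 0.601 CPM in sum, with Ptprc at 0 counts in all 8 libraries. Markers of T, B and NK cells (4 of 6 analysed) reached at most 0.268 CPM, with Cd4 and Cd8a at 0 counts. In RNA of whole cultures, fewer cells of a type and less RNA per cell cannot be told apart.

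The levels of the genes spanned a wide range. The median over the 43 genes of their mean level was 5.84 CPM, against 17.7 CPM over all genes, and 6 of them averaged over 50 CPM while 13 averaged under 1 CPM. Per transcript length, the highest mean levels over the 8 libraries were those of Ifitm3 at 446 TPM (the authors' length-scaled values), Ifitm2 at 415 TPM, B2m at 285 TPM, Ifi27 at 121 TPM and Tapbp at 50.4 TPM. Ifitm2 and Ifitm3 encode membrane proteins that restrict viral entry, B2m encodes the light chain of MHC class I, and Tapbp encodes tapasin. The MHC heavy chain genes H2-K1 and H2-D1 averaged 18.2 and 10.03 TPM, lower than B2m in each library. The 9 genes too low to test were Irf7, Oasl2, Ifit1, Isg15, Usp18, Bst2, Ifitm1, Ifi44 and Xaf1, with 0 to 23 counts per library and at most 1.23 CPM. Isg15, which encodes a ubiquitin-like modifier, had 0.0569 and 0.375 CPM in KO differentiation and 0.0561 and 1.23 CPM in WT differentiation, and at most 0.372 CPM in proliferation.

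**Figure D1:**
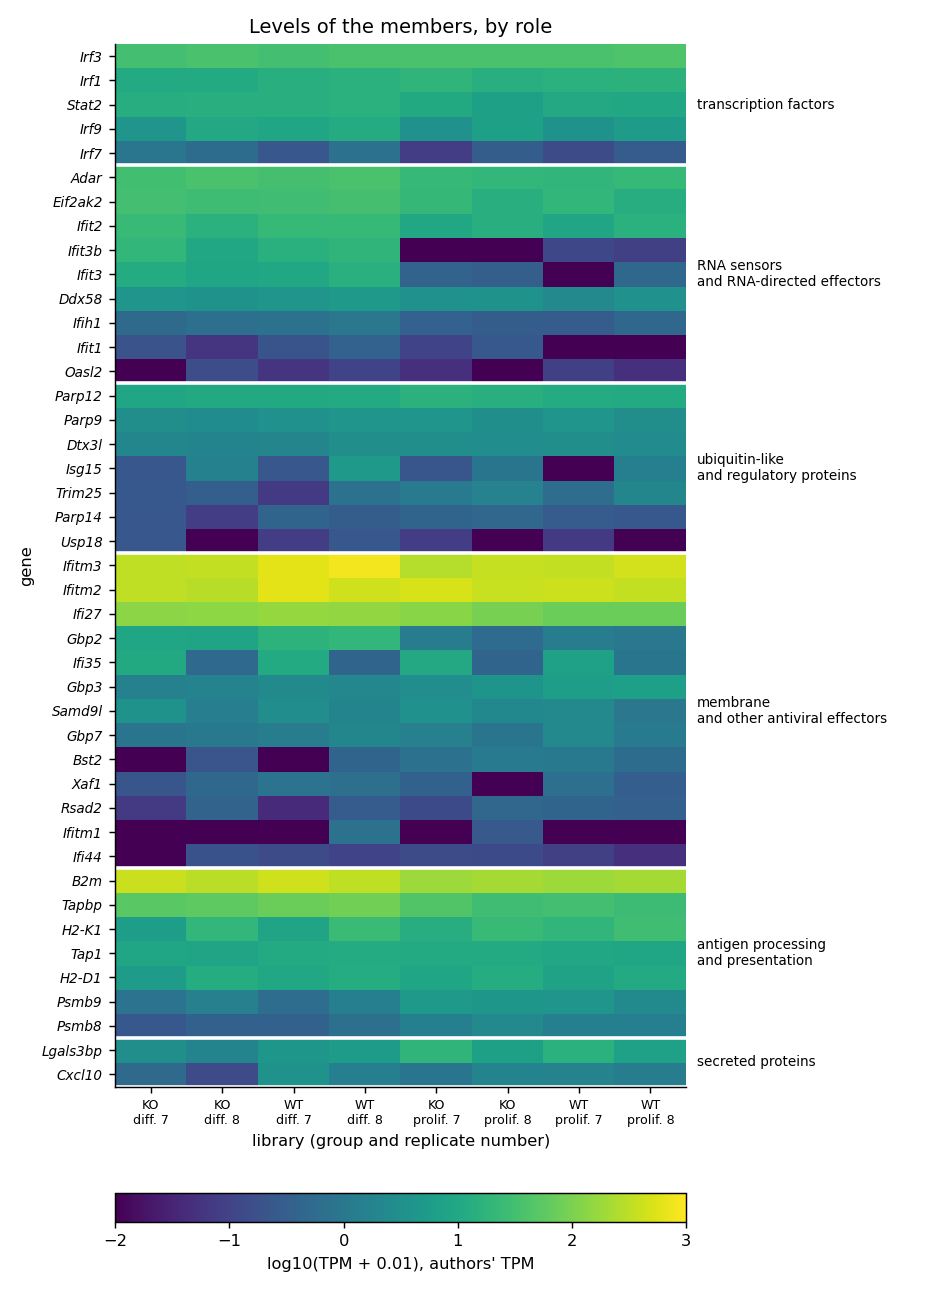
Levels of the 43 genes, on the log10(TPM + 0.01) scale of the authors' TPM values, with genes in rows grouped by role and the 8 libraries in columns. Ifitm3, Ifitm2, B2m and Ifi27 are bright in every library, Ifit3 and Ifit3b are bright in the 4 differentiation libraries and dark in the 4 proliferation libraries, and Ifi35 alternates between replicate numbers 7 and 8.

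On differentiation, genes of the list were called in both directions in each genotype, at shares below those of all tested genes. In KO cells, 5 of the 34 tested genes were higher in differentiation than in proliferation (Ifit3b, Ifit3, Gbp2, B2m and Adar) and 6 were lower (Lgals3bp, Parp12, Irf1, Gbp3, Psmb8 and Psmb9), at an adjusted p under 0.05. The shares, 14.7% higher and 17.6% lower, stand beside 25.1% and 26.7% of all tested genes. In WT cells, 8 were higher (Ifit3b, Ifit3, Gbp2, Tapbp, Ifi27, B2m, Ifitm3 and Adar) and 1, Gbp3, was lower, which is 23.5% and 2.94% of the 34, beside 27.0% and 28.3% of all tested genes. The authors' deposited table lists 5 members higher and 2 lower in KO cells at q under 0.05, beside 2750 and 2870 of all genes. In WT cells it lists 11 higher and 2 lower, beside 3365 and 3443 of all genes. The median log2 fold change of the 34 was -0.25 in KO and 0.38 in WT cells, while that of all tested genes was 0.01 in both. In KO cells, fewer genes passed as lower without any one KO library, and more passed as higher without KO proliferation replicate 7. In WT cells, Trim25 passed as lower beside Gbp3 without WT differentiation replicate 8. The shares of all tested genes called in these fits are not given here, so the changes are no result about the members. Ifit3b lies above either median at its fitted value and at its lower bound. Over the same 34 genes, the KO median was -0.12 without KO proliferation replicate 7, -0.07 without KO proliferation replicate 8 and -0.05 without KO differentiation replicate 7. The WT median was 0.16 without WT proliferation replicate 8 and 0.12 without WT differentiation replicate 7. In a model with an added term for the replicate number, more genes passed as higher in both genotypes and as lower in WT cells (see the last section). Of the 34, 20 passed in neither genotype without that term. Both differentiation libraries lay above both proliferation libraries in 11 genes and below them in 14 in KO cells, beside 37.8% and 38.1% of all tested genes. In WT cells they lay above in 15 and below in 8, beside 40.6% of all tested genes each way.

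Among the RNA sensors and RNA-directed effectors, each of the 7 tested genes had a fold change above 0 in both genotypes, and the same 3, Ifit3, Ifit3b and Adar, passed in each. Ifit3 and Ifit3b encode proteins with tetratricopeptide repeats that take part in the response to viral RNA. Ifit3 stood at 11.04 and 7.07 CPM in KO differentiation (replicates 7 and 8), against 0.328 and 0.271 CPM in KO proliferation. It stood at 8.75 and 12.5 CPM in WT differentiation, against 0 and 0.425 CPM in WT proliferation. All 4 differentiation libraries lay far above all 4 proliferation libraries. From summed counts of 326 and 11 the ratio was 30.1 in KO cells (95% counting interval 16.6 to 60.8), and from 389 and 8 it was 50.3 in WT cells (25.3 to 117), with adjusted p = 0.00508 and 0.00306 by edgeR.

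Ifit3b stood at 18.9 and 8.35 CPM in KO differentiation, and neither KO proliferation library had a count. It stood at 13.0 and 15.98 CPM in WT differentiation, against 0.106 and 0.0531 CPM in WT proliferation. The fold was at least 165 in KO cells when the empty KO group is set to a floor of 3 counts in all, and 182 in WT cells (95% counting interval 62.0 to 887, 529 against 3 counts), with adjusted p = 0.000446 and 0.000444 by edgeR. Ifit3 and Ifit3b are close copies near each other on chromosome 19 (chr19:34583119-34588982 and chr19:34607530-34613403 in GRCm38), so that reads may be split between them. Their summed level was 29.9 and 15.4 CPM in KO differentiation, against 0.328 and 0.271 CPM in KO proliferation, and 21.7 and 28.5 CPM in WT differentiation, against 0.106 and 0.478 CPM in WT proliferation. The sum gave ratios of 75.1 (41.7 to 151) in KO and 86.3 (48.0 to 173) in WT cells, so that the difference does not rest on how reads were divided between them.

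The bases upstream of both starts are shown because the largest folds of the list were those of this pair. They hold matches to GAAANNGAAA, a pattern of the response element that interferon-activated STAT2 and IRF9 bind. The sequences are from RefSeq (GRCm38.p6), on the plus strand, 200 bases ending just before the start, with matches to GAAANNGAAA on either strand in capitals (chr19:34583329-34583528 for Ifit3 and chr19:34607757-34607956 for Ifit3b).
Ifit3: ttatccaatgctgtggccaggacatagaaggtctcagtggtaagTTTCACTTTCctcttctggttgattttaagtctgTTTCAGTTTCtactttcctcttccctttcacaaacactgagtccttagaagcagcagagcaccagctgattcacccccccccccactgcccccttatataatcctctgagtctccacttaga
Ifit3b: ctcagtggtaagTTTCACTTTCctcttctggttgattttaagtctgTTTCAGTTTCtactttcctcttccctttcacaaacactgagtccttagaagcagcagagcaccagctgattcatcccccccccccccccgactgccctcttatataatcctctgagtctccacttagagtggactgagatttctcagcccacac
Both hold 2 matches, starting 156 and 122 bases upstream of the start in Ifit3 and 188 and 154 bases upstream in Ifit3b, and their windows of 300 bases share a run of 169 identical bases. RefSeq also starts a longer form of each gene further upstream.

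The motif GAAANNGAAA, searched on both strands from 250 bases before to 50 bases after each start, was in 17 of the 39 genes with a window (43.6%), against 3.99% of 27025 genes with a window and 3.44% of 32851 windows. The STAT motif TTCNNNGAA, searched likewise, was in 9 of the 39 (23.1%), against 9.55% of genes and 8.30% of windows. Matches of both motifs overlapped in the windows of Bst2 and Ifitm3. The list was chosen as interferon response genes, so a share above that of all genes is no finding of these data. Of the genes with GAAANNGAAA, 3 were too low to test and 14 were tested, and of those without it, 5 and 17. A match is a description of the sequence and says nothing of binding in these cells.

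Adar, whose product edits double-stranded RNA, stood at 91.6 and 99.2 CPM in KO differentiation, against 65.1 and 57.8 CPM in KO proliferation. It stood at 94.4 and 99.1 CPM in WT differentiation, against 59.2 and 64.8 CPM in WT proliferation. The log2 fold changes were 0.63 ± 0.11 and 0.64 ± 0.11 (SE; edgeR adjusted p = 0.00332 and 0.00279), and the conditions did not overlap. The other 4 did not pass. Eif2ak2, which encodes the kinase PKR, stood at 91.3 and 72.4 CPM in KO differentiation, against 62.3 and 39.1 CPM in KO proliferation (log2 fold change 0.69 ± 0.29, adjusted p = 0.0851). It stood at 80.3 and 88.8 CPM in WT differentiation, against 58.7 and 37.9 CPM in WT proliferation (0.81 ± 0.29, adjusted p = 0.0512). Ifit2 had log2 fold changes of 0.72 in KO and 0.76 in WT cells, Ifih1, the sensor MDA5, 0.82 and 1.00, and Ddx58, the sensor RIG-I, 0.11 and 0.63, with adjusted p between 0.0532 and 0.718.

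Among the membrane and other antiviral effectors, the GTPase genes of the guanylate-binding family went opposite ways. Gbp2 stood at 10.1 and 8.83 CPM in KO differentiation, against 1.48 and 0.596 CPM in KO proliferation. It stood at 18.9 and 21.8 CPM in WT differentiation, against 1.48 and 1.12 CPM in WT proliferation. Gbp2 was higher in every differentiation library, with log2 fold changes of 3.19 ± 0.41 in KO and 3.96 ± 0.42 in WT cells (SE; edgeR adjusted p = 0.00113 and 0.000417). Gbp3 stood at 2.05 and 2.09 CPM in KO differentiation, against 3.82 and 4.88 CPM in KO proliferation. It stood at 2.92 and 2.57 CPM in WT differentiation, against 8.26 and 8.56 CPM in WT proliferation. Gbp3 was lower in every differentiation library, by log2 fold changes of -1.07 ± 0.26 in KO and -1.61 ± 0.26 in WT cells (adjusted p = 0.0144 and 0.00245), and in KO cells the adjusted p was 0.0856 without KO proliferation replicate 8. Gbp7 did not pass, with log2 fold changes of -0.34 and -0.17. Gbp2, Gbp3 and Gbp7 lie close together on chromosome 3.

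The stretch upstream of Gbp2 is shown because this gene had the largest fold after the Ifit3 pair (RefSeq, GRCm38.p6, plus strand, chr3:142620463-142620621, GAAANNGAAA matches on either strand in capitals), beside those of B2m (plus strand, chr2:122147487-122147686), which rose modestly, and Isg15 (minus strand, chr4:156200819-156201018), which was too low to test.
Gbp2: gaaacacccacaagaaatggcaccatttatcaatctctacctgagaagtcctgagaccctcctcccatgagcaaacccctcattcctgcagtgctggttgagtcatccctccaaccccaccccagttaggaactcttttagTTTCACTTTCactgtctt
B2m: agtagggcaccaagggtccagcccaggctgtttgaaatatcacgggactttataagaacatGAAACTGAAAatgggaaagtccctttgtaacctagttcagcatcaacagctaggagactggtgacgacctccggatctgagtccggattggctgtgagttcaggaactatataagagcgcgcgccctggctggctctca
Isg15: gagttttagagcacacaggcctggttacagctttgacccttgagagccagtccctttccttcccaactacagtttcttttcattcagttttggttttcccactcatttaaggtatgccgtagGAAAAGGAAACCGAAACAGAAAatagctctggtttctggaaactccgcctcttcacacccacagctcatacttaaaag
The match lies 59 bases upstream of the RefSeq start in Gbp2 and 139 bases upstream in B2m, and 3 overlapping matches lie 78, 72 and 66 bases upstream in Isg15. GENCODE M21 places a start of Gbp2 61 bases before the RefSeq start, so that the match of Gbp2 falls just inside that longer first exon. Genes with the motif thus include some that were high only in differentiation and some with almost no counts.

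Ifi27, which encodes a small mitochondrial protein, stood at 52.9 and 51.2 CPM in KO differentiation, against 51.0 and 36.7 CPM in KO proliferation (log2 fold change 0.25 ± 0.16, adjusted p = 0.239). It stood at 62.5 and 57.6 CPM in WT differentiation, against 31.8 and 29.7 CPM in WT proliferation, and passed there (0.97 ± 0.16, adjusted p = 0.00287). Ifitm3 stood at 68.0 and 67.4 CPM in KO differentiation, against 58.8 and 73.4 CPM in KO proliferation, where the groups overlapped (0.03 ± 0.17, adjusted p = 0.877). It stood at 125 and 156 CPM in WT differentiation, against 74.3 and 89.7 CPM in WT proliferation, and passed (0.78 ± 0.17, adjusted p = 0.0081), though not without WT proliferation replicate 7 (adjusted p = 0.054). A call in WT and none in KO cells does not show that the genotypes differ. For the difference itself, the log2 values were -0.72 ± 0.23 for Ifi27 and -0.74 ± 0.24 for Ifitm3, and neither passed (adjusted p = 0.981 for each).

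**Figure D2:**
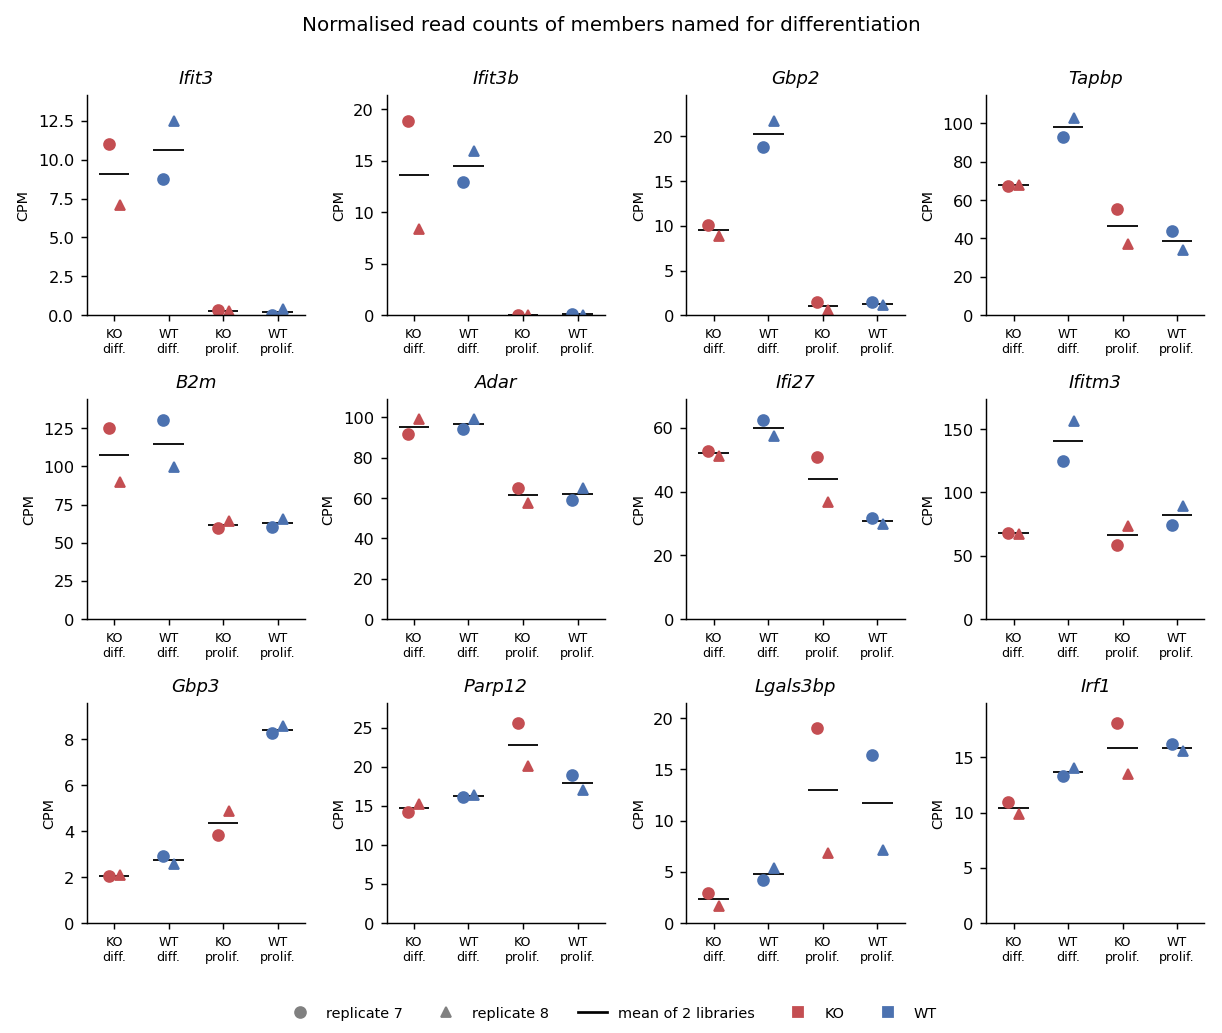
CPM of 12 genes in each library, in panels with linear axes from 0, with circles for replicate 7, triangles for replicate 8 and a line at the mean of the 2 libraries of a group. Ifit3, Ifit3b and Gbp2 are near 0 in the 4 proliferation libraries, Adar and B2m are higher in all 4 differentiation libraries, and Gbp3 and Lgals3bp are lower in them.

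Of the 7 antigen processing and presentation genes, B2m passed as higher in both genotypes and Tapbp in WT cells, while Psmb8 and Psmb9 passed as lower in KO cells. B2m stood at 125 and 89.9 CPM in KO differentiation, against 59.4 and 64.3 CPM in KO proliferation. It stood at 130 and 99.4 CPM in WT differentiation, against 60.6 and 65.8 CPM in WT proliferation. The differentiation libraries were all above the proliferation libraries, by log2 fold changes of 0.80 ± 0.20 and 0.86 ± 0.20 (SE; edgeR adjusted p = 0.014 and 0.00968). In KO cells B2m no longer passed when KO proliferation replicate 7 (adjusted p = 0.0716) was left out, or KO differentiation replicate 7 (0.0589), and in WT cells without WT proliferation replicate 7 (0.0608) or WT differentiation replicate 7 (0.0581).

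Tapbp stood at 67.4 and 67.9 CPM in KO differentiation, against 55.5 and 37.3 CPM in KO proliferation (log2 fold change 0.54 ± 0.21, adjusted p = 0.068). It stood at 93.0 and 103 CPM in WT differentiation, against 43.9 and 33.7 CPM in WT proliferation (1.34 ± 0.21, adjusted p = 0.00228). Tapbp was higher in the differentiation libraries of both genotypes, with no overlap. Tap1, a subunit of the peptide transporter, had log2 fold changes of -0.39 in KO and 0.19 in WT cells, and H2-K1 of -0.56 and -0.62, and neither passed. The deposited positions of H2-K1, H2-D1, Psmb8, Psmb9, Tap1, Tapbp and Trim25 are on alternate scaffolds of the assembly or merged with them, and reads of MHC genes can be shared between similar copies.

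Psmb8 and Psmb9 encode catalytic subunits of the immunoproteasome, which replace the constitutive subunits encoded by Psmb5 and Psmb6. Psmb8 stood at 0.114 and 0.161 CPM in KO differentiation, against 0.710 and 1.083 CPM in KO proliferation, and at 0.168 and 0.322 CPM in WT differentiation, against 0.741 and 0.691 CPM in WT proliferation. Psmb9 stood at 0.228 and 0.428 CPM in KO differentiation, against 1.58 and 1.30 CPM in KO proliferation, and at 0.168 and 0.429 CPM in WT differentiation, against 1.22 and 0.797 CPM in WT proliferation. Both were lower in all differentiation libraries, but at under 2 CPM, and passed only in KO cells (adjusted p = 0.0123 and 0.0283, against 0.0643 and 0.0545 in WT cells). The Psmb9 call was lost without any one of the 4 KO libraries (adjusted p = 0.0522 to 0.121), and Psmb8 did not pass without KO proliferation replicate 8 (0.0645) or KO differentiation replicate 7 (0.0617). As a share of its constitutive counterpart per transcript length, Psmb8 TPM was 0.093% to 0.135% of Psmb5 TPM in KO differentiation, 0.155% to 0.198% in WT differentiation, 0.468% to 0.526% in KO proliferation and 0.296% to 0.427% in WT proliferation. Psmb10, the remaining immunoproteasome subunit, stood higher, at 3.28% to 5.04% of Psmb7 over all libraries.

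Parp12, an ADP-ribosyltransferase, stood at 14.2 and 15.2 CPM in KO differentiation, against 25.6 and 20.1 CPM in KO proliferation (log2 fold change -0.64 ± 0.16, edgeR adjusted p = 0.0155). It stood at 16.2 and 16.4 CPM in WT differentiation, against 19.0 and 17.01 CPM in WT proliferation (-0.14 ± 0.16, adjusted p = 0.474). Lgals3bp, which encodes a secreted glycoprotein that binds galectin-3, stood at 2.96 and 1.66 CPM in KO differentiation, against 19.1 and 6.82 CPM in KO proliferation (-2.48 ± 0.64, adjusted p = 0.018). Lgals3bp was at 4.21 and 5.42 CPM in WT differentiation, against 16.4 and 7.17 CPM in WT proliferation (-1.29 ± 0.61, adjusted p = 0.116). In both genotypes its replicate 7 of proliferation was the highest library. Irf1, a transcription factor that activates interferon-stimulated genes, stood at 10.98 and 9.91 CPM in KO differentiation, against 18.1 and 13.5 CPM in KO proliferation (-0.60 ± 0.18, adjusted p = 0.0294). It stood at 13.4 and 14.1 CPM in WT differentiation, against 16.2 and 15.6 CPM in WT proliferation (-0.21 ± 0.18, adjusted p = 0.34). Parp12 no longer passed in KO cells when KO proliferation replicate 7 (adjusted p = 0.099) was left out, or KO differentiation replicate 7 (0.0648). Lgals3bp no longer passed without KO proliferation replicate 7 (0.0817) or KO differentiation replicate 8 (0.0938), and the Irf1 call without any of 7 libraries (0.0521 to 0.185). Of the other ubiquitin-like and regulatory genes, Trim25 (-2.40 in KO and -1.74 in WT cells), Dtx3l (-0.66 and -0.31), Parp9 (-0.37 and -0.02) and Parp14 (-1.51 and 0.35) did not pass. Fewer genes passed as lower in differentiation in KO cells without any one KO library. The shares of all tested genes called in those fits are not given here.

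The transcription factors other than Irf1 did not pass. Stat2 stood at 29.1 and 29.0 CPM in KO differentiation, against 24.1 and 14.7 CPM in KO proliferation, and at 29.7 and 31.9 CPM in WT differentiation, against 23.6 and 20.4 CPM in WT proliferation. The groups did not overlap in either genotype, with log2 fold changes of 0.58 ± 0.23 and 0.48 ± 0.23 (adjusted p = 0.0722 and 0.113). Irf3, which acts ahead of interferon production, stood at 26.6 to 35.5 CPM over all 8 libraries. Irf9 stood at 4.61 and 11.03 CPM in KO differentiation, 9.76 and 12.7 in WT differentiation, 3.88 and 7.53 in KO proliferation and 4.40 and 6.11 in WT proliferation.

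**Figure D3:**
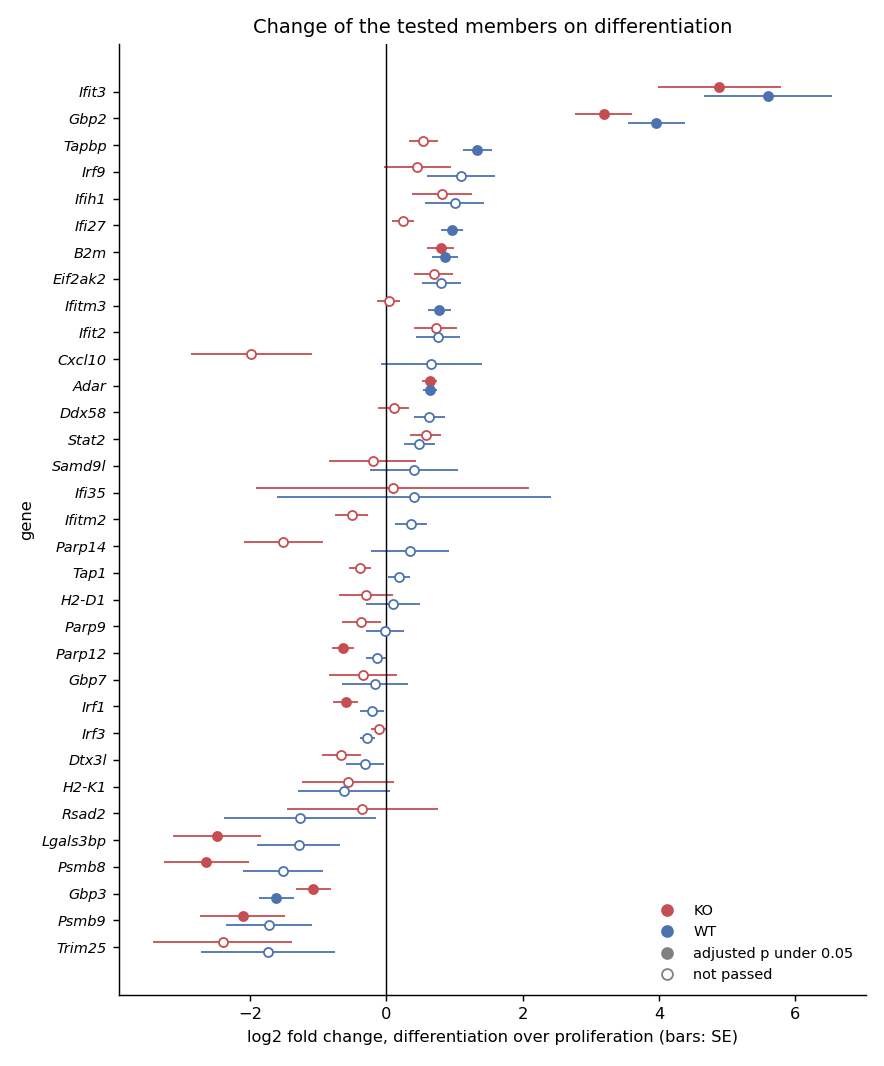
Log2 fold change of 33 tested genes, differentiation over proliferation, with KO in red above WT in blue for each gene, bars of 1 SE, and filled points for adjusted p under 0.05. Ifit3b is left out because it had no count in KO proliferation. Ifit3 and Gbp2 lie far to the right in both genotypes and Gbp3 is filled on the left in both.

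Loss of YAP1 did not change a member of the list past the threshold in proliferation. By edgeR, 0 of 34 genes were higher and 0 lower in KO than in WT proliferation, and an unadjusted p under 0.05 was reached by 1 higher and 1 lower gene. Of all 13046 tested genes, 186 higher and 108 lower reached it. Over all genes, 0.0% were called higher and 0.00767% lower, which is Yap1 alone. DESeq2, limma-voom and the authors' deposited table also called 0 of the 34. Over all genes, the authors' table lists 11 higher and 4 lower. The median log2 fold change was 0.04, against 0.00 over all tested genes, with 18 genes above 0 and 16 below. Both KO libraries lay above both WT libraries in 6 genes and below them in 4, beside 14.7% and 15.6% of all genes.

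Gbp3 had the smallest p, at 3.82 and 4.88 CPM in KO proliferation, against 8.26 and 8.56 CPM in WT proliferation (log2 fold change -0.95 ± 0.26, edgeR adjusted p = 1). The genotypes did not overlap, and the difference within replicate 7 was -1.09 and within replicate 8 -0.80. Ifi27 had the smallest p of those above 0, at 51.0 and 36.7 CPM in KO proliferation, against 31.8 and 29.7 CPM in WT proliferation (0.51 ± 0.16, adjusted p = 1). Parp12 (0.34), Ddx58 (0.30) and Parp14 (0.71) above 0 and Ifitm3 (-0.31) and Irf3 (-0.12) below 0 had the next smallest p, and none of them passed. Ifit3b had no count in KO proliferation and 3 counts over both WT proliferation libraries, too few for a fold.

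In differentiation, 0 of 34 genes passed in either direction by edgeR, and 29 of the 34 (85.3%) had a fold change below 0, against 48.2% of all tested genes. Over all genes, 0.0% were called higher and 0.0% lower in this comparison. Yap1 itself did not pass here, so 0 of 34 does not show that these genes are unchanged. The median log2 fold change of the 34 was -0.35, against 0.01 over all tested genes, and it was -0.23 within replicate 7 and -0.51 within replicate 8. Over the same 34 genes it was -0.22 without WT differentiation replicate 8. Both KO libraries lay below both WT libraries in 17 of the 34 genes and above them in 0, beside 15.6% and 15.9% of all genes. At an unadjusted p under 0.05, 5 were lower and 0 higher, beside 378 lower and 244 higher of all 13046 tested genes. DESeq2 called 1 lower, Ifitm3, limma-voom called 0, and the authors' deposited table lists 1 lower, Ifitm3, with a log2 fold change of -1.05 and q = 0.00047. Over all genes, the authors' table lists 23 lower and 1 higher.

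Ifitm3 stood at 68.0 and 67.4 CPM in KO differentiation, against 125 and 156 CPM in WT differentiation, so that the lowest WT library was well above both KO libraries. The log2 fold change was -1.05 ± 0.17 (SE), with edgeR adjusted p = 0.909 and DESeq2 adjusted p = 0.00032. It was -0.87 within replicate 7 and -1.21 within replicate 8. Ifitm2, which is similar in sequence and lies nearby on chromosome 7, stood at 70.7 and 60.8 CPM in KO differentiation, against 129 and 88.3 CPM in WT differentiation (-0.72 ± 0.24, edgeR adjusted p = 0.934). Gbp2 stood at 10.1 and 8.83 CPM in KO differentiation, against 18.9 and 21.8 CPM in WT differentiation (-1.10 ± 0.36, adjusted p = 0.934), with differences of -0.89 within replicate 7 and -1.29 within replicate 8. In all 3 genes the genotypes did not overlap.

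Cxcl10, which encodes a chemokine that attracts T cells, had 4 and 1 counts in KO differentiation, against 27 and 11 counts in WT differentiation, that is 0.228 and 0.0535 CPM against 1.51 and 0.590 CPM (log2 fold change -2.86 ± 0.87, adjusted p = 0.934). Tapbp stood at 67.4 and 67.9 CPM in KO differentiation, against 93.0 and 103 CPM in WT differentiation (-0.53 ± 0.21, adjusted p = 0.934), and Tap1 and Irf1 at log2 fold changes of -0.39 each did not pass either. Genes that passed in differentiation were not all among the low ones, since Adar, B2m and Ifit3b had log2 fold changes of -0.02, -0.09 and -0.09 between the genotypes. For Ifit3b the replicates went opposite ways, with KO against WT at 18.9 and 13.0 CPM in replicate 7 and 8.35 and 15.98 CPM in replicate 8. Leaving out 1 library, its value ran from -0.793 to 0.386, and that of B2m from -0.353 to 0.128. Rsad2 (0.48), Psmb9 (0.13), Samd9l (0.12), Irf3 (0.05) and Ifi35 (0.02) were the 5 above 0. In these libraries the 5 astrocyte markers summed to 3397 to 4074 CPM in KO differentiation, against 5803 to 6146 CPM in WT differentiation. Gfap carried most of this, with 7883 and 23898 counts in KO differentiation, against 52011 and 46680 counts in WT differentiation. Aqp4 was lower in KO within each replicate number, S100b was higher within each, Slc1a3 was 41782 and 24830 counts against 42330 and 26989, and Aldh1l1 was lower within replicate 7 and higher within replicate 8. The ependymal list, carried by Foxj1, summed to 17.6 to 28.5 CPM in KO differentiation, against 51.3 to 63.4 CPM in WT differentiation. The part of either in the lower values was not tested.

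**Figure D4:**
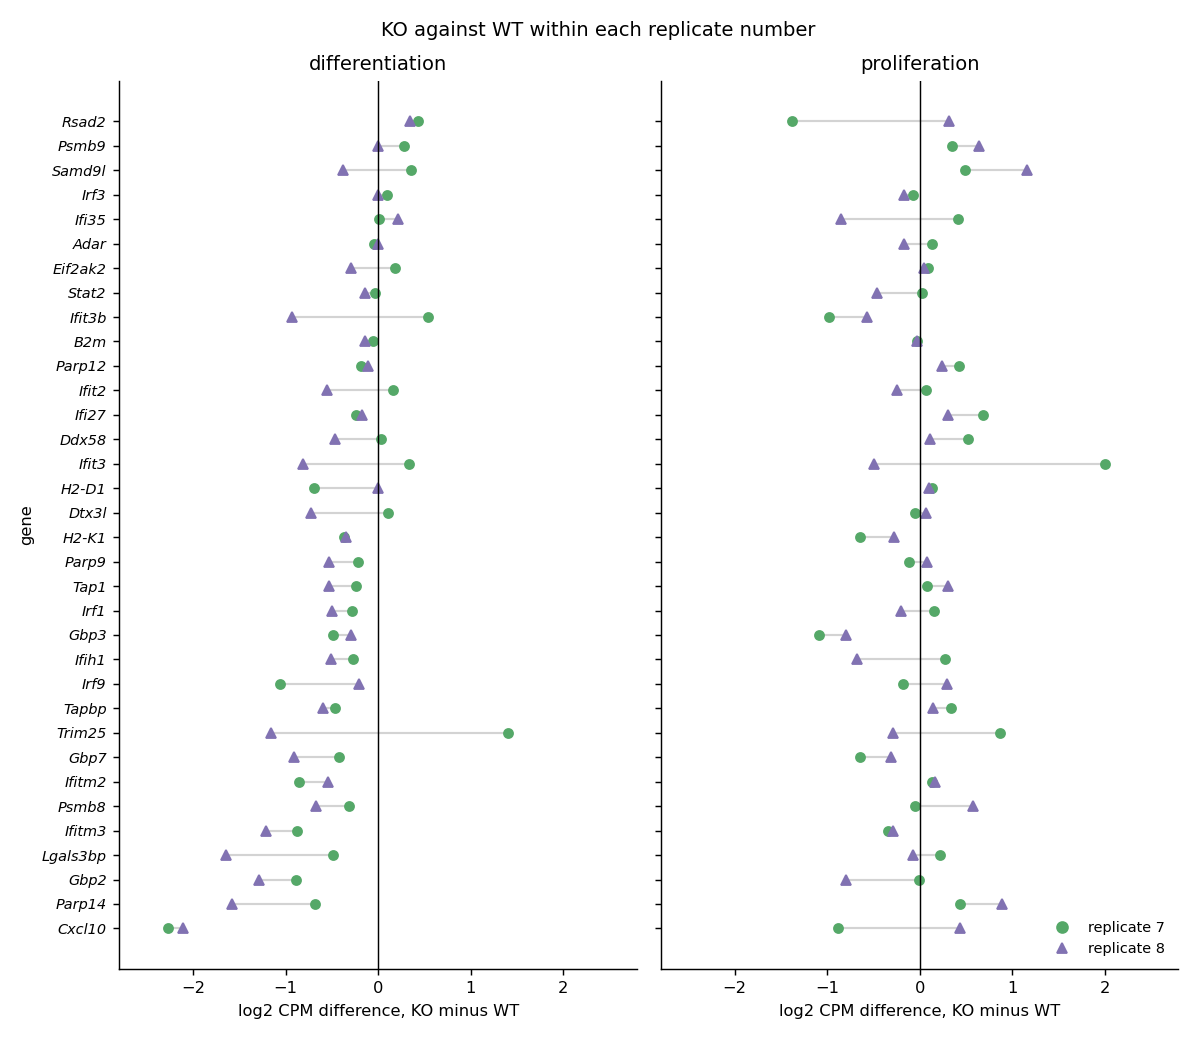
Difference in log2 CPM (prior count 2) between KO and WT for each of the 34 tested genes, within replicate 7 (circles) and within replicate 8 (triangles), in differentiation on the left and proliferation on the right, with genes in the order of the fitted fold change in differentiation. Most points lie left of 0 in differentiation, Ifitm3, Gbp2 and Cxcl10 with both points, while in proliferation points lie on either side.

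Averaged over both conditions, 0 of 34 passed by edgeR in either direction (0.0% of all genes higher and 0.00767% lower), with 4 lower and 0 higher at an unadjusted p under 0.05, and DESeq2 called Ifitm3 lower (log2 fold change -0.68, adjusted p = 0.00105) and limma-voom 0. At that unadjusted p, 238 of all 13046 tested genes were lower and 174 higher. The median of the 34 was -0.15, against 0.008 over all tested genes. The difference between the KO effects of the conditions had a median of -0.39, against 0.001 over all tested genes. Of the 34 genes, 28 (82.4%) were below 0, against 49.8% of all tested genes. By edgeR, 0 genes passed in either direction (0.0% of all genes higher and 0.0% lower), and 0 by DESeq2 and by limma-voom. At an unadjusted p under 0.05, 5 were lower and 0 higher, beside 349 lower and 209 higher of all 13046 tested genes.

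The 96 other pathway genes with counts, of 117 listed, were read the same way, and 71 were tested. The 10 interferon ligand genes of the list, Ifnb1 and Ifng among them, were not analysed here. The counts called in each list stand beside 25.1% higher and 26.7% lower of all tested genes in differentiation in KO cells, and 27.0% and 28.3% in WT cells. Of 8 tested receptor and kinase genes, 2 were higher and 1 lower in differentiation in KO cells, and 3 higher and 0 lower in WT cells. Jak1, a kinase shared by interferon receptors, stood at 248 and 237 CPM in KO differentiation, against 93.5 and 90.5 CPM in KO proliferation, and at 250 and 233 CPM in WT differentiation, against 97.2 and 87.1 CPM in WT proliferation (log2 fold changes 1.40 in KO and 1.39 in WT cells, adjusted p = 0.000117 and 0.000104). Of 7 negative regulators, 2 were higher and 1 lower in KO cells and 3 higher and 0 lower in WT cells. Socs3, which encodes an inhibitor of Janus kinases, rose by log2 1.27 and 1.88 in differentiation (adjusted p = 0.00494 and 0.00089).

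Of 9 tested genes of nucleic acid sensing, 0 were higher and 2 lower in KO cells and 2 higher and 2 lower in WT cells. Tmem173, which encodes STING, stood at 4.95 and 4.66 CPM in KO differentiation, against 94.6 and 95.7 CPM in KO proliferation, and at 4.43 and 3.49 CPM in WT differentiation, against 68.8 and 59.2 CPM in WT proliferation. STING was lower in all 4 differentiation libraries (log2 fold changes -4.30 and -4.01, adjusted p = 9.99e-06 and 1.09e-05), and so was Cgas, which makes the signal that STING detects (-3.53 and -3.13, adjusted p = 0.00988 and 0.0133). Of 21 other interferon-stimulated genes, 6 were higher and 4 lower in KO cells, and 8 higher and 4 lower in WT cells. Gbp6 and Irgm2 were higher in both genotypes (log2 2.50 in KO and 3.92 in WT cells for Gbp6, 1.55 and 3.40 for Irgm2), and Gbp9 (-3.81 in KO and -2.66 in WT cells) and Ube2l6 (-1.44 and -1.09) were lower in both.

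Of 15 other MHC class I pathway genes, 0 were higher and 7 lower in KO cells, and 2 were higher and 3 lower in WT cells. Calr and Pdia3, which encode chaperones of the peptide-loading complex, were lower in differentiation in both genotypes (log2 -1.03 and -0.95 for Calr, -0.86 and -0.95 for Pdia3), and so was H2-Q7, at 0 to 0.0569 CPM in the differentiation libraries, against 2.06 to 2.55 CPM in the proliferation libraries. Of 7 MHC class II genes, 2 could be tested and 0 passed in either comparison. Of 3 constitutive proteasome genes, 0 were higher and 1 lower in each genotype, and of 6 NF-kB targets, 2 were higher and 1 lower in each. In KO against WT, 0 of the 71 passed in either condition. In differentiation, the median log2 fold change of these lists ran from -0.223 (negative regulators) to 0.1 (MHC class II genes), against -0.35 for the 34. It was -0.111 for the other interferon-stimulated genes (15 of 21 below 0) and -0.138 for the other MHC class I pathway genes (9 of 15).

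Between the replicate numbers, 6 of the 34 genes differed, at shares near those of all tested genes. These genes were picked by that difference, so their order within each group is not separate support. A contrast of the libraries numbered 7 with those numbered 8, in a model with a term per group and one for the number, was added after seeing the data, and the 4 libraries of a number may share a source. It called 3 genes higher in number 7 (Ifi35, Samd9l and Ifitm2) and 3 lower (H2-K1, Irf9 and H2-D1), 8.82% each way, beside 5.72% higher and 7.84% lower of all tested genes. Ifi35, an interferon-induced protein gene, stood at 6.26 and 6.23 CPM in the number 7 libraries of KO and WT differentiation and 5.90 and 4.40 CPM in those of KO and WT proliferation. It stood at 0.268, 0.215, 0.217 and 0.478 CPM in the corresponding number 8 libraries, so that every number 7 library was above every number 8 library. The log2 difference was 4.23 ± 0.32 (SE), or 18.8-fold, with edgeR adjusted p = 0.000251.

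Samd9l, which encodes an inhibitor of translation, was at 6.25 to 9.11 CPM in number 7 and 2.39 to 5.47 CPM in number 8 (log2 1.04, adjusted p = 0.0101). H2-D1 was at 4.21 to 6.90 CPM in number 7 and 8.61 to 9.26 CPM in number 8 (-0.58, adjusted p = 0.0484), and H2-K1 at 4.50 to 14.6 CPM and 13.4 to 20.8 CPM (-1.10, adjusted p = 0.00952). H2-K1 and H2-D1 were lower in number 7 in each of the 4 groups, and both encode classical MHC class I heavy chains. Ifitm2 was higher in number 7 in all 4 groups (0.39, adjusted p = 0.0117) and Irf9 lower in all 4 (-0.76, adjusted p = 0.0288). The H2-D1 call was lost without any one of the 8 libraries, the Irf9 call without any of 6 and the Ifitm2 call without either WT proliferation library. Without either WT differentiation library, Lgals3bp and Eif2ak2 were added to the genes higher in number 7. The share of all tested genes called then is not given here. For Ifi35 in KO against WT, the differences within number 7 were 0.01 in differentiation and 0.42 in proliferation. Within number 8, KO was at 5 counts against 4 in WT differentiation, and at 4 counts against 9 in WT proliferation.

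**Figure D5:**
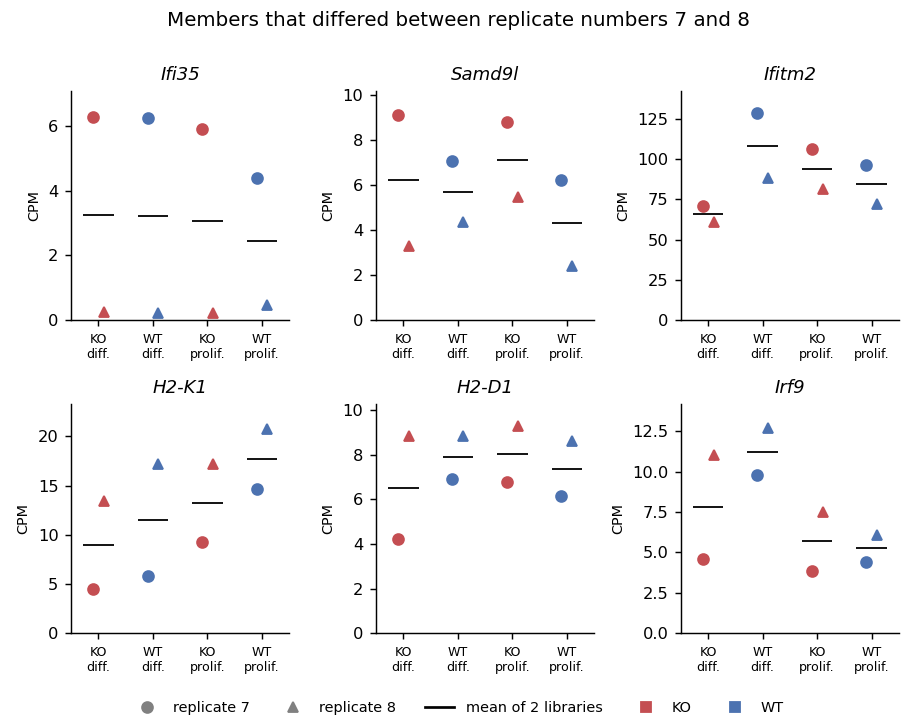
CPM of the 6 genes that differed between replicate numbers, in each library, with linear axes from 0, circles for replicate 7, triangles for replicate 8 and a line at the mean of the 2 libraries of a group. Circles lie above triangles in every group for Ifi35, Samd9l and Ifitm2 and below them in every group for H2-K1, H2-D1 and Irf9.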

How the data were processed

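RNA of YAP1 knockout and wild-type mouse spinal cord cultures was sequenced as stranded polyA libraries, per the labels' protocols. The authors deposited estimated counts per gene, of which 6.51% of values are not whole, their TPM values, and log2 fold changes with q-values of their own DESeq2 comparisons, per the file headers. The aligner, counting tool or use of strand was not given in the sources used here. Per the submitters' processing notes the genome is GRCm39, but 85.4% of 16878 genes have the start of GRCm38.p6, which is used here. Of 20 labelled libraries, 8 were analysed, and 12 columns of 4 unlabelled libraries and 1 line without a gene were left out.

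Counts were rounded and tested with edgeR 4.0.16 in R 4.3.3 (robust quasi-likelihood F-test, two-sided, TMM, filterByExpr, 4 group terms, 4 residual degrees of freedom). The filter kept 13046 genes (77.1%), over which p was adjusted (threshold 0.05). The biological coefficient of variation was 24.1%. SE was taken from the log2 fold change and F. The design foresaw all labelled libraries. The test was checked on simulated data. Alternatives were RLE, DESeq2 1.42.0, limma-voom (limma 3.58.1), no filter, a replicate block and leaving out each library. Genes described in full were, per comparison, up to 6 called in each direction with a mean of at least 5 CPM, or otherwise the 4 with the smallest p, and 1 to 3 of the highest of each role. Psmb8, Psmb9 and the genes of the replicate number contrast were added after their values were seen. The members and lists were chosen with earlier results of these data known. Intervals and floors on counts cover only counting error. Leaving out a library leaves its group with 1, assumed to vary like the rest.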

Additional observations from a re-analysis of the deposited data

How the results depend on the processing

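No called result changed direction under RLE normalisation, DESeq2, limma-voom, no filter on low counts or the replicate block, and the cause of the shifts below was not tested. In KO against WT in differentiation, members called lower were 1 by DESeq2, 2 by DESeq2 with the replicate block, 1 by limma-voom with the block and 1 without a filter with the block, against 0. Averaged over both conditions they were 1 by each of these 4, against 0. In the difference between the KO effects, DESeq2 with the block called 2 lower. For differentiation in KO cells, 8 were higher with the replicate block (8 also with limma-voom, with RLE and without a filter, and 9 with DESeq2), against 5. For differentiation in WT cells, 14 were higher with the block (14 with DESeq2, limma-voom and RLE, 15 without a filter), against 8, and 7 were lower with the block (4 with DESeq2, 7 with limma-voom, 6 with RLE, 4 without a filter) and 2 by limma-voom alone, against 1. The shares of all tested genes called under these settings are not given here, so the changed counts are no result about the members. The WT median was 0.344 by limma-voom, 0.415 without a filter, 0.346 by limma-voom with the block and 0.483 without a filter with the block. Same-numbered libraries deviated together (r = 0.538 to 0.784 over genes), but with 2 numbers the numbers do not establish a pairing, so the block stays an alternative. Leaving out 1 library, where the filter applied again passed 35 or 36 members, changed the numbers called in KO and in WT differentiation. The shares of all tested genes called in these fits are not given here either. The medians ranged from -0.292 to -0.006 and from 0.176 to 0.574 there, from -0.031 to 0.072 for KO against WT in proliferation, from -0.468 to -0.185 in differentiation, from -0.194 to -0.105 averaged, and from -0.536 to -0.235 for the difference. The numbers called in the number contrast changed as well. The block combined with another tool, the number contrast and the summed Ifit3 pair were chosen after seeing the data. With at most 18940983 counts per library, genes under 1 CPM rest on few counts.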
